A study of Arabidopsis thaliana with 22 samples.

Results

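The data described here are the 4 arrays that compare dexamethasone (DEX) with Mock treatment after 24 h in *Arabidopsis thaliana* plants carrying pGL3::GL3-GR, 2 DEX and 2 Mock arrays out of 22 arrays in the series. They were chosen by their titles, which give the transgene, the treatment and the time, and no measured value entered the choice. GL3-GR joins the GL3 protein to the hormone-binding portion of the glucocorticoid receptor and is driven by the *GL3* promoter, in plants that lack both *GL3* and its paralog *EGL3*, per the study's methods. All 4 samples thus shared the *gl3 egl3* mutations and the transgene, and differed only in the medium. DEX plants were moved to medium with DEX, and Mock plants to medium with ethanol, in which the DEX stock was also dissolved. The methods state an ethanol concentration for the Mock medium alone. An ethanol dose that differed between the treatments therefore cannot be told apart from DEX. Green tissues were collected, and each RNA extract came from pooled seedlings. The rest of the series holds the same line at 4 h (6 arrays) and a *gl1* line with pGL1::GL1-GR at 4 h and 24 h (6 arrays each). Samples of a group came from biologically independent plant material per the methods. The labels add no more than a sample number, so p-values measure the spread between these samples.

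GL3 is a basic helix-loop-helix transcription factor. It acts with the MYB protein GL1 and the WD40 protein TTG1, and the complex starts the program that turns an epidermal cell of a young leaf into a trichome, a single-celled leaf hair. The complex switches on genes that carry the trichome forward, among them *GL2* and *TTG2*. It also switches on genes for small R3 MYB proteins such as CPC, TRY and ETC1, which reach or act on neighboring cells and hold back their entry into the pathway. Later steps are repeated rounds of DNA replication without division (endoreduplication), outgrowth and branching. A GR fusion is held outside the nucleus until DEX binds it. The comparison therefore asks which transcripts differ in green tissue 24 h after GL3 was freed to act. Only a small share of green tissue is epidermis at the stage when trichomes start. In a bulk extract, fewer cells of a type cannot be told apart from less RNA per cell.

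Levels are GCRMA values on the log2 scale, one for each probe set, so a difference of 1 is a 2-fold ratio. Of 22746 probe sets other than the array's own controls, 13633 lay above the 40th percentile of the array in at least 2 of the 4 arrays and were tested. The arrays had medians of 4.67 to 4.72, and 41.1% to 41.3% of the probe sets of each array lay within 0.5 of its lowest value, at the floor of the method. Photosynthesis genes were among the highest, with levels between 12.05 and 13.60 for *RCA*, *LHCB4.1*, *SBPASE* and *PRK*, all 4 measured of 23 listed. The root hair gene *EXPA7* was at the floor in the 4 arrays. *PYK10*, a beta-glucosidase gene known from roots and from the ER bodies of seedlings, was at 11.82 to 12.01. *FMA*, a marker of guard cells, lay between 7.61 and 7.98. The control probe sets for the 3' and 5' ends of actin differed by 3.98 to 4.13, and those for 25S rRNA read 7.43 and 8.10 in Mock and 8.28 and 8.34 in DEX. The part of these technical measures in the differences below was not tested.

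No probe set passed the test at an adjusted p of 0.05 (limma on the 4 arrays, Benjamini-Hochberg over 13633 probe sets). The share called was thus 0%, and the smallest adjusted p was 0.483. With an unadjusted p below 0.01, the cut-off used in the methods, there were 49 probe sets above Mock (0.359%) and 66 below (0.484%), where 0.01 of the probe sets tested is 136. At an unadjusted p under 0.05 there were 812 (5.96%). Both DEX arrays lay above both Mock arrays for 1978 probe sets (14.5%) and below them for 2939 (21.6%), 36.1% in all. With a log2 difference of at least 1 in addition, 19 stood higher (0.139%) and 32 lower (0.235%). An exact permutation test of 2 arrays against 2 cannot give a two-sided p below 0.333. The values that follow are therefore descriptions of 4 arrays, in which no single gene rose or fell by the adjusted test.

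The arrays of different treatments were about as alike as arrays of the same treatment. Of the 13633 probe sets, 153 differed by at least 1 between the Mock arrays and 97 between the DEX arrays. Between treatments this number was 245 for Mock 1 with DEX 1, 205 for Mock 2 with DEX 1, 123 for Mock 2 with DEX 2 and 83 for Mock 1 with DEX 2. The closest pair of all was thus a Mock and a DEX array, and DEX 1 stood farthest from both Mock arrays. Correlations over the probe sets ranged from 0.992 to 0.995. Among the probe sets at least 2-fold apart, DEX 1 was the array farther from Mock for 14 of 19 that stood higher and for 29 of 32 that stood lower, beside 8322 of all 13633 tested. In 4 of the 19 and 5 of the 32, each DEX array was at least 1 away from each Mock array.

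**Figure D1:**
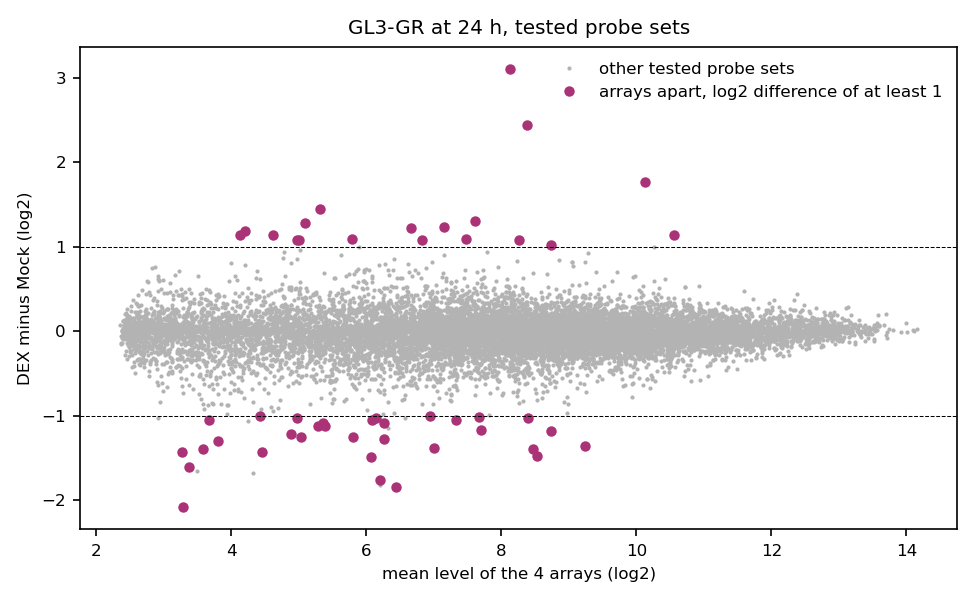
Difference between the DEX and Mock means (log2, vertical) against the mean level of the 4 GL3-GR arrays of 24 h (log2, horizontal) for 13633 tested probe sets. Colored points are the 51 probe sets whose DEX and Mock arrays did not overlap and whose difference was at least 1 (dashed lines), 19 above and 32 below, and 3 of them stand clear above the rest.

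The probe sets farthest above Mock were separated from the rest, and none of them carries the name of 1 gene here. Probe set 251438_s_at, which the platform table assigns to several genes, read 6.49 and 6.64 in Mock (samples 1 and 2, in this order throughout) and 9.60 and 9.74 in DEX. The arrays of each treatment lay close together and far from those of the other. Its log2 difference was 3.11 ± 0.09 (SE, 2 against 2 arrays, adjusted p = 0.483), an 8.61-fold ratio. Probe set 267238_at, for which the table gives no gene, read 6.96 and 7.36 in Mock and 9.69 and 9.52 in DEX, a difference of 2.45 ± 0.18 (adjusted p = 0.786). Probe set 257654_at, also without a gene, read 9.04 and 9.45 in Mock and 11.10 and 10.93 in DEX, a difference of 1.77. In all 3, the gap between treatments was several times the gap between arrays of a treatment. Probe set 251438_s_at passed the test, with an adjusted p of 0.0255, when only probe sets above the 60th percentile in 2 arrays were tested. The first and the last of these 3 were chosen after their values were seen.

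These 3 probe sets were also higher with DEX in the GL1-GR arrays of 24 h, which share no array with the GL3-GR set. Probe set 267238_at read 7.45, 6.78 and 4.79 in GL1-GR Mock and 10.12, 9.94 and 9.41 in GL1-GR DEX, a difference of 3.48 ± 0.73 (SE). Probe set 251438_s_at read 5.82, 5.60 and 5.60 in GL1-GR Mock and 8.44, 8.48 and 6.31 in GL1-GR DEX, where the third DEX array stood apart from the other 2. Its difference there was 2.07. Probe set 257654_at read 9.92, 9.70 and 9.11 in GL1-GR Mock and 11.58, 11.27 and 11.42 in GL1-GR DEX, a difference of 1.85 ± 0.23. The DEX and Mock arrays did not overlap for any of the 3. An exact permutation test of 3 against 3 arrays cannot give a two-sided p below 0.1, and in the fit of the GL1-GR arrays of 24 h alone the adjusted p was 1.00 for each (limma, 0 probe sets passed).

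At 4 h the 3 probe sets parted. In GL3-GR the DEX and Mock arrays of 4 h overlapped for each, with differences of 0.18 (251438_s_at), 0.50 (267238_at) and 0.65 (257654_at). For 267238_at and 257654_at, sample 1 stood highest in both treatments. Probe set 257654_at read 8.91, 6.30 and 6.54 in Mock and 10.13, 6.99 and 6.56 in DEX. The 3' and 5' actin probe sets differed by 5.32 to 6.40 in these arrays, against 3.98 to 4.13 in GL3-GR at 24 h. With this spread, the overlap does not show that a response was absent at 4 h. The 6 GL1-GR arrays of 4 h had 251438_s_at at the floor, between 2.11 and 2.12. In the same arrays 267238_at read 4.33 to 4.63 in Mock and 5.40 to 5.61 in DEX, and 257654_at read 7.67 to 8.10 in Mock and 8.45 to 8.87 in DEX. These differences were 1.09 ± 0.11 and 0.84 ± 0.16, neither past the test (adjusted p = 0.576 for both, limma on the GL1-GR arrays of 4 h). None of the 22 arrays comes from DEX-treated plants without a GR fusion, so a response to GL3 or GL1 and a response to DEX cannot be told apart in these probe sets. The sets of arrays look separately normalized, so levels are compared within a set alone.

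**Figure D2:**
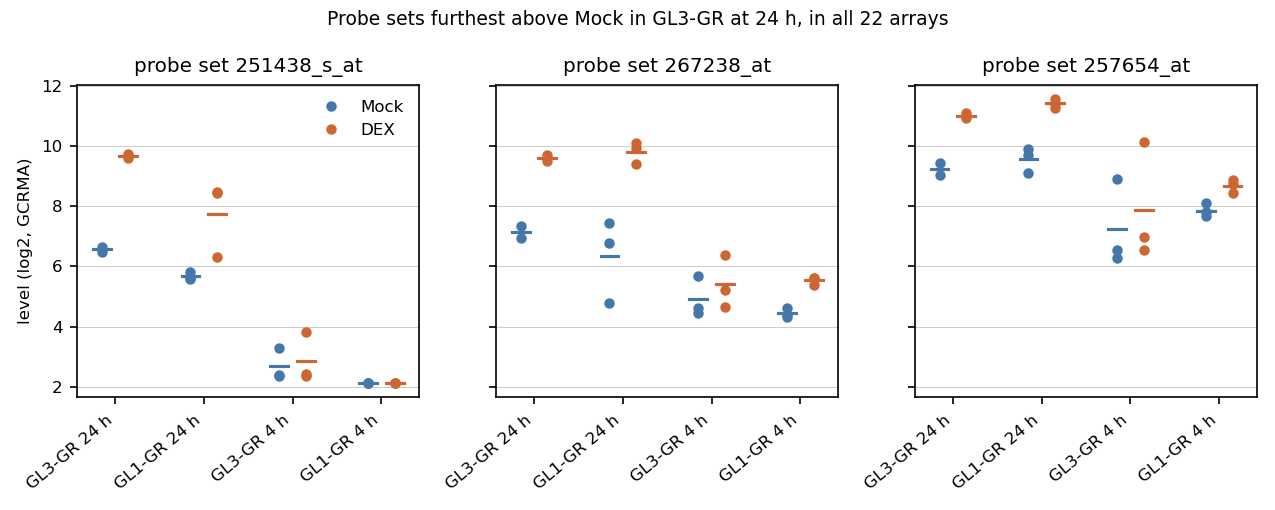
Levels (log2, GCRMA) of the 3 probe sets with the largest differences in GL3-GR at 24 h, one point for each of the 22 arrays, Mock in blue and DEX in orange, with a bar at each group mean. DEX points lie above all Mock points of the set in GL3-GR and GL1-GR at 24 h for each probe set, and overlap them in GL3-GR at 4 h.

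Direct targets of GL3 and GL1 are genes whose promoters these factors bind. The list followed here holds 18 genes, of which 14 had a named probe set and 10 were tested. It takes the targets in the study's summary whose binding by GL3, GL1 or both was seen by ChIP of single promoters, and so leaves out *MYB103* and *AT3G10113*. None passed the test, none had both DEX arrays above both Mock arrays, and 4 had them below (the background over all probe sets is 14.5% above and 21.6% below). Their median log2 difference was 0.0027, against -0.01 over all tested probe sets. *GL2*, the homeodomain gene that carries trichome growth, read 2.13 in each of the 4 arrays, and *TTG2*, a WRKY gene of the same step, read 2.13 to 2.14. *ETC1* (2.11) and the bHLH gene *ATMYC1* (2.14) were at the floor as well, so that no order can be read among their arrays.

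The R3 MYB inhibitor genes *CPC* and *TRY* stood barely above the floor. *CPC* read 2.40 and 2.44 in Mock and 2.43 and 2.53 in DEX. *TRY* read 3.04 and 2.90 in Mock and 2.91 and 3.06 in DEX. The DEX arrays overlapped the Mock arrays for both. The GRAS gene *SCL8* was similarly low, at 2.68 and 2.68 in Mock and 2.65 and 2.68 in DEX.

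The cell cycle targets *SIM* and *RBR1* were well above the floor, and so was *MYBL2*. *SIM*, whose product inhibits cyclin-dependent kinases and promotes endoreduplication, read 7.07 and 7.34 in Mock and 7.30 and 7.60 in DEX. Its difference of 0.25 was the largest among the targets and its arrays overlapped. *RBR1*, the retinoblastoma-related repressor of E2F factors, read 7.11 and 7.07 in Mock and 7.02 and 7.07 in DEX, a difference of -0.04. *MYBL2*, a single-repeat MYB repressor, read 9.59 and 9.49 in Mock and 9.51 and 9.84 in DEX, and DEX 2 alone stood above both Mock arrays.

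The 4 targets with both DEX arrays below both Mock arrays had small differences. *KCS10*, which the study lists as *FDH* and which makes very-long-chain fatty acids of the cuticle, read 9.98 and 9.97 in Mock and 9.81 and 9.85 in DEX, a difference of -0.14 (unadjusted p = 0.066 by limma). *AT1G77670*, an aminotransferase gene, read 8.19 and 8.34 in Mock and 7.96 and 8.19 in DEX, a difference of -0.19. *AT3G50790* read 9.78 and 9.59 in Mock and 9.52 and 9.54 in DEX, a difference of -0.15. The fourth was *RBR1*. For 2 of the 4, the nearest arrays were almost equal. *RBR1* read 7.066 in DEX 2 against 7.068 in Mock 2, and *AT1G77670* read 8.1938 in DEX 2 against 8.1940 in Mock 1. *PyrD*, a deaminase gene, read 10.49 and 10.59 in Mock and 10.53 and 10.69 in DEX, so that the 2 treatments overlapped.

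**Figure D3:**
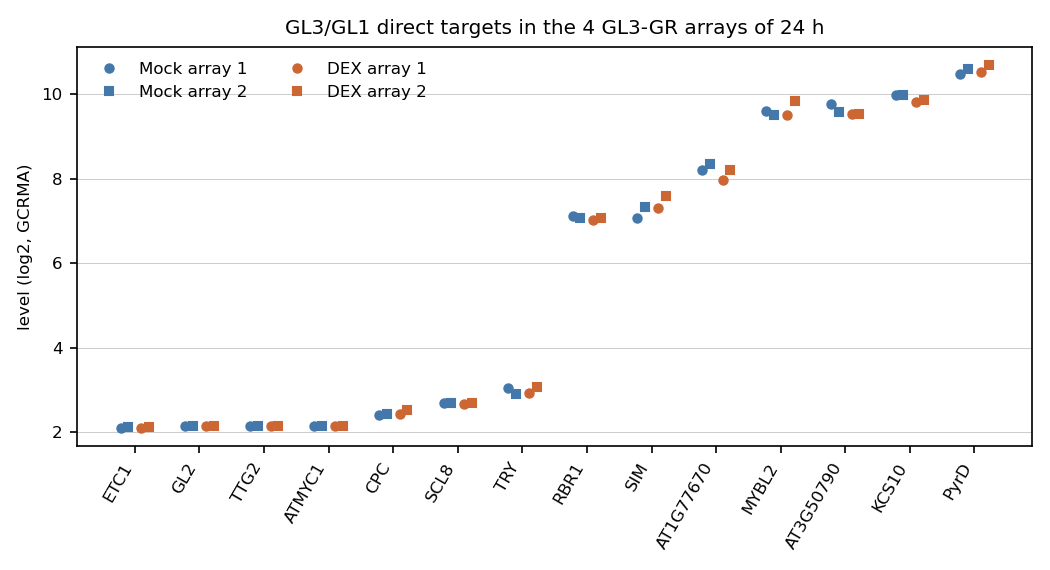
Levels (log2, GCRMA) of the 14 measured GL3/GL1 direct targets in the 4 GL3-GR arrays of 24 h, ordered by the Mock mean, circles for sample 1 and squares for sample 2. The genes at the left lie near the floor of about 2.1, and no gene has both DEX points above both Mock points.

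Other genes with known trichome functions were grouped by the step at which they act. The background for their counts is again 14.5% above and 21.6% below over all tested probe sets. The complex's own members gave no contrast. *EGL3*, which is mutated in these plants, and *GL1*, whose probe set carries the symbol *MYB0*, were at the floor (2.14 and 2.12). *GL3* itself had no named probe set, so the transgene could not be followed. *TTG1* read 8.25 and 8.45 in Mock and 8.53 and 8.29 in DEX. Among the 5 tested pattern genes, *GEM* alone had non-overlapping arrays, 7.75 and 7.71 in Mock against 7.68 and 7.69 in DEX.

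Of 4 tested initiation genes, *RGA1* stood higher. It encodes a DELLA protein, a repressor of gibberellin responses, and gibberellin promotes trichome formation. It read 5.80 and 5.74 in Mock and 6.16 and 6.20 in DEX, a difference of 0.41 ± 0.06 (SE, unadjusted p = 0.0045 by limma, adjusted p = 0.786). *RHM1*, a rhamnose synthase gene of the cell wall, read 9.65 and 9.92 in Mock and 9.59 and 9.62 in DEX, a difference of -0.18. *KCS10* was the other one that stood lower.

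Of 21 tested probe sets for endoreduplication genes, 2 had DEX arrays above Mock, 2 below and 17 overlapped, with a median difference of 0.0073. The 17 include *AT4G14880*, listed as *CYC3A* though its symbol is *OASA1*, so its place in the list is uncertain. Over all tested probe sets, 14.5% stood above and 21.6% below. *KAK*, a ubiquitin ligase gene that restrains endoreduplication, read 4.78 and 4.32 in Mock and 5.04 and 4.88 in DEX. A second probe set of *KAK* was at the floor. *MSI1*, a subunit of chromatin assembly factor 1, read 9.22 and 8.90 in Mock and 8.79 and 8.52 in DEX, a difference of -0.40. *E2F1*, an E2F factor gene, had a difference of 0.30, which came from a low Mock 1 (6.04 against 6.61 in Mock 2, and 6.66 and 6.58 in DEX).

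Morphology genes shape the outgrowing cell through actin and microtubules. Of 17 tested, 3 stood higher, 5 lower and 9 overlapped, beside 14.5% higher and 21.6% lower over all tested probe sets. The 5 include *AT1G61580*, listed as *ARP2* though its symbol is *RPL3B*, so its place in the list is uncertain. The probe set with the symbol *ARP2* overlapped. *DIS1*, a subunit of the ARP2/3 complex that nucleates actin, read 7.30 and 7.41 in Mock and 7.01 and 6.89 in DEX, a difference of -0.41 (unadjusted p = 0.0129). The tubulin-folding cofactor gene *POR* read 5.13 and 4.98 in Mock and 4.77 and 4.47 in DEX, a difference of -0.44, and *KIS*, another one, had a difference of -0.18. On the other side, *ZWI*, a kinesin gene of branching, read 5.71 and 6.39 in Mock and 6.44 and 6.45 in DEX. Its difference of 0.39 rested on Mock 1. *KIPK*, a kinase gene whose product binds ZWI, read 6.77 and 6.32 in Mock and 6.85 and 6.80 in DEX. Its difference of 0.28 was 0.055 without Mock 2. *PIR121*, a subunit of the SCAR/WAVE complex, had a difference of 0.07.

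Of the named genes above Mock, 12 with the smallest p had differences of 0.37 to 1.14, each with an adjusted p of 0.786. *AT3G10810* had the smallest unadjusted p (0.0014). It read 5.65 and 5.67 in Mock and 6.22 and 6.29 in DEX, a difference of 0.60. *AT1G48090*, which encodes a very large VPS13-like protein, read 3.56 and 3.56 in Mock and 4.89 and 4.50 in DEX, a difference of 1.14. *AT2G41190*, of an amino acid transporter family, read 8.95 and 8.72 in Mock and 9.57 and 9.72 in DEX, a difference of 0.81. In these, the gap between treatments was larger than that between arrays of a treatment.

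*AT3G22060*, a gene for a secreted cysteine-rich repeat protein, read 10.02 and 10.13 in Mock and 10.53 and 10.64 in DEX, a difference of 0.51. It was the only one of the 12 that differed by 1 or more in GL1-GR at 24 h (1.06, arrays not overlapping). *AT1G45160*, a protein kinase gene, had a difference of 0.70, and *AT3G56310*, an alpha-galactosidase gene, one of 0.41. The others were *AT5G66950*, *AT5G47400*, *RGA1*, *AT4G32190*, *AT1G56210* and *AT5G59210*, with differences of 0.37 to 0.53. The unnamed probe set 263297_at read 7.83 and 7.82 in Mock and 8.59 and 8.72 in DEX, a difference of 0.83, and in GL1-GR at 24 h its difference was 1.02 with overlapping arrays.

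The largest differences above Mock among named genes varied more between arrays. *AT2G07732* read 4.72 and 4.47 in Mock and 5.37 and 6.71 in DEX, so that DEX 2 alone carried most of its difference of 1.44. Its probe set ends in _s_at, a sign that it matches more than 1 transcript. *AT1G56660* read 6.28 and 6.79 in Mock and 7.65 and 7.88 in DEX (1.23). *AT5G40450* read 9.66 and 10.32 in Mock and 11.23 and 11.03 in DEX (1.14), the highest level in the group. *AT3G04160* read 5.64 and 4.83 in Mock and 6.44 and 6.22 in DEX (1.09).

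Defensin genes stood in this group too. *PDF1.2*, a plant defensin gene known as a marker of jasmonate and ethylene signaling, read 3.63 and 4.46 in Mock and 5.57 and 4.79 in DEX, a difference of 1.14 ± 0.45 (SE). *PDF1.2b*, a close relative, read 8.08 and 8.35 in Mock and 9.71 and 8.77 in DEX, a difference of 1.03. Its probe set ends in _x_at, which marks probes that can cross-hybridize, so the 2 defensin genes may not be separate readings. *JRG21*, a jasmonate-regulated gene, read 8.06 and 7.40 in Mock and 9.21 and 8.40 in DEX, a difference of 1.07. DEX 1 was the highest array in all 3. *PDF1.2b* and *JRG21* were chosen after their values were seen, and none of the 17 genes listed for the jasmonate pathway had a named probe set.

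Below Mock, the unnamed probe set 260046_at had the smallest p (2.0e-04, adjusted p = 0.786). It read 5.92 and 5.98 in Mock and 4.79 and 4.85 in DEX, a difference of -1.13 ± 0.06 (SE), with almost no spread within a treatment. Another, 263765_at, read 5.81 and 5.84 in Mock and 5.10 and 5.09 in DEX (-0.74). In GL1-GR at 24 h their differences were -0.22 ± 0.42 and 0.17 ± 0.24 (SE), with overlapping arrays.

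The 12 named genes with the smallest p below Mock had differences between -0.97 and -0.42. *AT1G78410*, a VQ motif gene, read 9.36 and 9.54 in Mock and 8.57 and 8.40 in DEX, a difference of -0.97 ± 0.11 (SE). It was the only one of the 12 that was also lower in GL1-GR at 24 h with no overlap (-0.47). Another of the 12, *AT5G63100*, stood higher there with no overlap (0.23). *AT5G47730*, of the Sec14 lipid transfer family, read 8.36 and 8.44 in Mock and 7.59 and 7.73 in DEX (-0.74). The peroxidase gene *AT5G58390* read 7.34 and 7.34 in Mock and 6.80 and 6.69 in DEX (-0.60).

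*AT3G57630*, an exostosin-family gene, had the smallest unadjusted p among them (0.0014), with 6.26 and 6.27 in Mock and 5.76 and 5.73 in DEX. *AT1G76550*, of the phosphofructokinase family, had a difference of -0.48. *AT3G24070* and *AT5G08535* had the highest levels of the 12, with Mock means of 9.87 and 10.52 and differences of -0.48 and -0.57. The remaining *AT5G20885*, *AT5G63100*, *AT1G34380*, *AT1G30300* and *AT1G66660* had differences of -0.42 to -0.56.

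The largest differences below Mock among named genes were of 2 kinds, those in which both DEX arrays stood apart and those that rested on 1 array. *AT5G52760* read 6.41 and 7.23 in Mock and 5.31 and 5.35 in DEX, a difference of -1.49. *AT5G03350*, a legume-lectin gene known to respond to salicylate, read 9.87 and 9.96 in Mock and 8.25 and 8.86 in DEX, a difference of -1.36 ± 0.25 (SE). For both, each DEX array stood at least 1 below each Mock array. *AT2G23270* read 4.46 and 4.46 in Mock and 3.69 and 2.63 in DEX (-1.30).

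The calmodulin-like gene *AT3G01830* read 9.36 and 9.17 in Mock and 6.59 and 8.98 in DEX, so that its difference of -1.48 came from DEX 1. *WRKY53*, a WRKY factor of leaf senescence and defense, read 9.69 and 8.64 in Mock and 6.97 and 8.55 in DEX, and DEX 2 lay just below Mock 2. *CML37*, another calmodulin-like gene, read 6.89 and 6.43 in Mock and 4.92 and 6.33 in DEX. For *CHI* (*AT2G43570*), a chitinase gene, 1 Mock array decided the difference of -1.43, with 3.99 and 6.36 in Mock and 3.74 and 3.74 in DEX. Without DEX 1, the differences were -0.28 for *AT3G01830*, -0.61 for *WRKY53* and -0.33 for *CML37*, and without Mock 2 it was -0.24 for *CHI*.

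**Figure D4:**
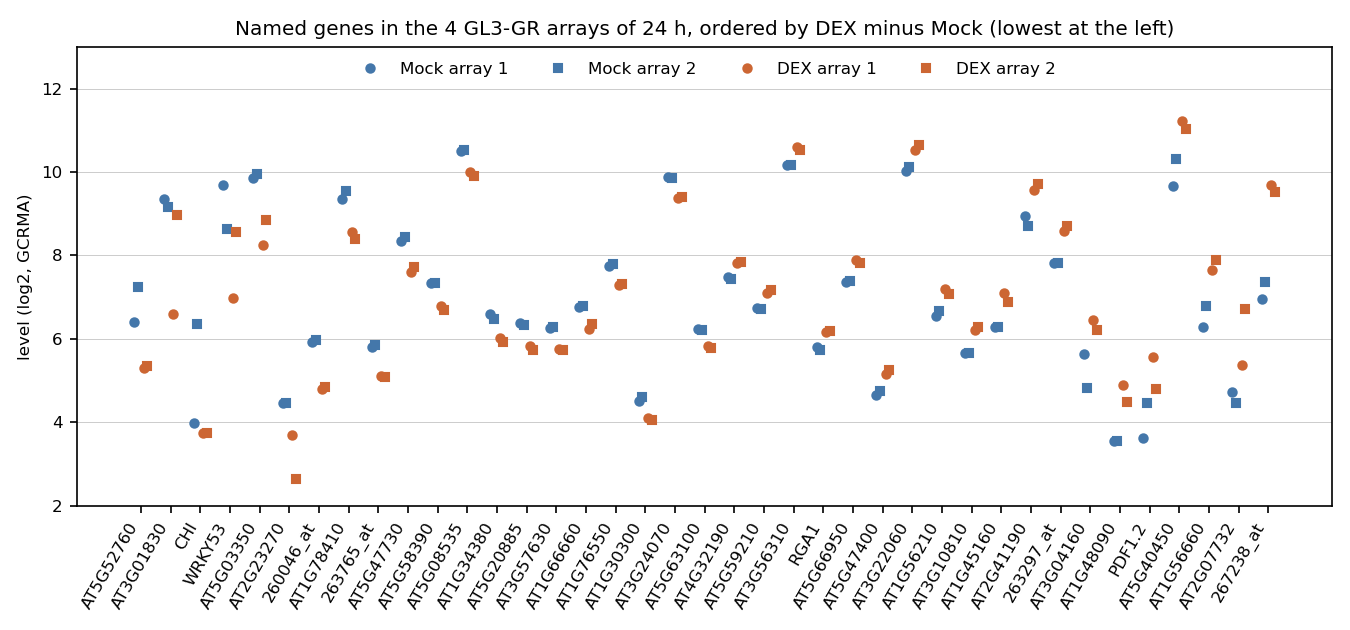
Levels (log2, GCRMA) of the named genes and unnamed probe sets in the 4 GL3-GR arrays of 24 h, ordered from the most negative to the most positive DEX minus Mock difference, circles for sample 1 and squares for sample 2. DEX and Mock points do not overlap for any of these, as the rule asks of those with the largest differences, and the spread within a treatment is largest at both ends, as for *AT3G01830* (6.59 and 8.98 in DEX).

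Pathways around the trichome program were followed through lists of 403 loci in all, of which 127 had a named probe set. No member of any list passed the test. For the list counts from here on, the background over all tested probe sets is 14.5% higher and 21.6% lower without overlap. In the gibberellin list, 6 of 24 genes were measured and 3 stood higher, 1 lower and 2 overlapped, with a median of 0.14. Beside *RGA1*, the gibberellin receptor genes *GID1A* and *GID1B* stood higher. *GID1A* read 8.88 and 9.04 in Mock and 9.17 and 9.21 in DEX (0.23), and *GID1B* read 6.36 and 5.88 in Mock and 6.53 and 6.64 in DEX (0.47). The third receptor gene, *GID1C*, overlapped (6.35 and 7.19 in Mock, 6.83 and 6.54 in DEX). *SLY1*, the F-box gene whose product targets DELLA proteins for degradation, read 10.24 and 10.29 in Mock and 9.96 and 10.15 in DEX (-0.21).

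All 3 measured genes of glucosinolate metabolism, out of 21 listed, stood lower (21.6% of all tested probe sets did), with a median of -0.42. *AOP3*, which modifies side chains of aliphatic glucosinolates, read 9.47 and 9.61 in Mock and 8.85 and 8.99 in DEX, a difference of -0.62 (unadjusted p = 0.0053, adjusted p = 0.786). *BCAT4*, which starts methionine chain elongation, read 11.48 and 11.66 in Mock and 11.22 and 11.08 in DEX (-0.42). *UGT74B1*, a glucosyltransferase of the core pathway, had a Mock mean of 9.95 ± 0.07 and a DEX mean of 9.59 ± 0.05 (SD, n = 2 each), a difference of -0.36. In GL3-GR at 4 h the 3 differences were -1.52, -0.87 and -0.43 with overlapping arrays. In GL1-GR at 24 h they were -0.01, -0.34 and -0.11.

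Defense and stress lists were thinly measured. Of 23 salicylate-linked genes, 2 were measured and lay on opposite sides, *GRX480*, a glutaredoxin gene, at 8.65 and 8.71 in Mock and 7.50 and 8.16 in DEX (-0.85), and *SAG101* with a difference of 0.07. Of 5 measured touch, cold and wound genes, *CML37* and *WRKY53* stood lower, while *STZ*, *CML38* and *EXO* overlapped. Among 7 tested co-chaperone genes, *AT5G18750* read 3.74 and 3.89 in Mock and 4.93 and 4.28 in DEX (0.79), *AT1G77020* read 4.14 and 4.79 in Mock and 5.09 and 4.96 in DEX (0.56), and 5 overlapped.

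In the mitotic list of 5 tested genes, *AUR2*, an Aurora kinase gene, stood lowest, at 5.62 and 5.89 in Mock and 4.76 and 5.58 in DEX. Its difference of -0.58 was -0.17 without DEX 1. In the flavonoid list, 3 of 5 tested stood lower (21.6% over all tested probe sets). *UGT78D1* among them, a flavonol glycosyltransferase gene, read 8.66 and 8.14 in Mock and 7.85 and 8.08 in DEX, and its difference of -0.44 was -0.18 without Mock 1. In the stomatal list, the peptide gene *STOMAGEN* read 11.26 and 11.26 in Mock and 10.96 and 11.16 in DEX (-0.21). Ethanol was the Mock treatment and the solvent of the DEX stock, and its dose in the DEX medium is not stated. Of the genes linked to low oxygen and ethanol use, *ALDH2C4* had a difference of 0.12, *ACS*, for acetyl-CoA synthetase, one of -0.18, and the median of 6 was 0.07. Of 4 photosynthesis genes, *PRK* (0.23) and *RCA* (0.07) stood higher, and of the 2 measured reference genes *AT4G34270* had -0.17 and *AT2G28390* 0.02.

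**Figure D5:**
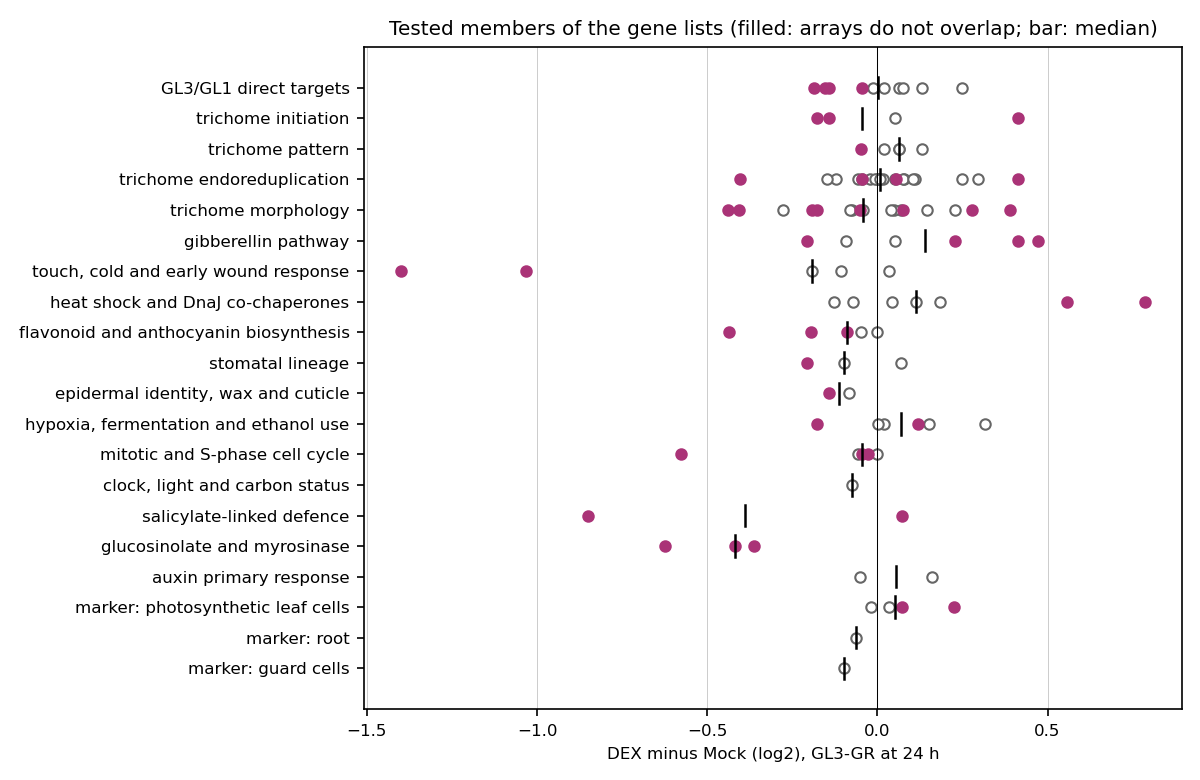
Difference between DEX and Mock (log2, horizontal) for the tested members of each gene list in GL3-GR at 24 h. Filled points are members whose DEX and Mock arrays did not overlap, open points those that overlapped, and the bar is the list's median. The bars lie between -0.42 and 0.14, and the points farthest out are *WRKY53* (-1.40) and *AT5G18750* (0.79).

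The DEX response of GL3-GR at 24 h was tested against that of the same line at 4 h and against that of GL1-GR at 24 h. No probe set passed either test (0% each, smallest adjusted p of 1.00, limma). At an unadjusted p under 0.01 there were 39 against 4 h and 55 against GL1-GR, and at 0.05 there were 279 and 324. The spread between arrays of a group was 0.204 in GL3-GR at 24 h (root mean square SD over probe sets), 0.547 in GL3-GR at 4 h and 0.295 in GL1-GR at 24 h.

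As a description, signs were compared with those sets, which share no array with the 4 arrays. Over all tested probe sets, 57.4% had the same sign in GL1-GR at 24 h and 53.4% in GL3-GR at 4 h. Of the 49 probe sets above Mock at an unadjusted p under 0.01, 42 (85.7%) were also above Mock in GL1-GR at 24 h, where 62.3% of all probe sets above Mock were. Of the 66 below Mock, 34 (51.5%) were also below in GL1-GR at 24 h, beside 53.6% of all probe sets below Mock. For the 2-fold probe sets the counts in GL1-GR at 24 h were 14 of 19 above and 30 of 32 below, beside 62.3% and 53.6% of all. The DEX and Mock arrays of GL1-GR at 24 h did not overlap in that direction for 5 of the 19 and 3 of the 32 (561 of all 13633). The 3 include an unnamed probe set at the floor there (2.18 to 2.25), with a difference of -0.026. Several of the 30 were at the floor there, where a sign cannot be read. Among these, *AT4G37290* read 2.16 in each array, *AT3G02840* 2.16 to 2.17, *AT2G24600* 2.17 to 2.21 and *AT3G01830* 2.17 to 2.28. The count of 30 therefore does not show a shared response. At 4 h in GL3-GR, 24 of the 49 and 44 of the 66 kept the sign, beside 43.3% and 61.7% of all.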

How the data were processed

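The 22 ATH1 arrays carry labels that give line, treatment and time, from which the groups were taken. Per the labels, total RNA went through linear amplification and biotin labelling (NuGEN Ovation). The authors deposited GCRMA values in log2 units, computed with affylmGUI. Neither the labels nor the methods give its version. The method removes a background predicted from probe sequence and normalizes arrays together, and undetected probe sets lie at a floor. The range of the values sets the log2 scale. Lowest values were alike within each line and time and differed between them, so comparisons stay within a set, and how values were centered is unknown.

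The 64 control probe sets were left out. Probe sets above the array's 40th percentile in at least 2 of the 4 arrays were tested with limma 3.58.1 (lmFit, eBayes) in R 4.3.3, checked on simulated data, with Benjamini-Hochberg adjustment. In that check, 31% of 100 simulated log2 changes of 1 and 76% of 100 of 2 passed, with 4 false calls. Most true 2-fold changes would thus be missed at such a spread. Of 22746 probe sets, 13566 had 1 gene, 503 several and 8677 none. These came from the platform table, which can be old, and from the identifiers that the study gives for known trichome genes. Of the first, 53 had no gene in the platform table and took their name from the study's identifiers. Symbols and lengths are those of RefSeq TAIR10.1. No coordinates or sequences are given. The number of arrays limits the precision.

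Named genes were those with 1 gene name and at least 1 above the floor in the higher group: 12 with the smallest p in each direction, 6 with the largest non-overlapping differences in each direction, the measured direct targets, and list members needed to describe a list. At most 2 probe sets without a gene in each direction were added. The members and lists were chosen with earlier results of these data known. Alternatives covered the arrays in the fit, the replicate block, normalization, the filter, the variance model, the methods' t-test and each array left out.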

Additional observations from a re-analysis of the deposited data

How the results depend on the processing

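No alternative but 1 gave a probe set past an adjusted p of 0.05 in the comparison of DEX with Mock. The exception was the filter at the 60th percentile in 2 arrays, with 1 call (251438_s_at, adjusted p = 0.0255). The 115 probe sets at an unadjusted p under 0.01 became 42 with all 22 arrays in 1 fit, 51 with the replicate block and 222 without a filter, and ranged from 56 to 152 when 1 array was left out, with the lowest count without DEX 1. The split of 49 above and 66 below became 61 and 52 with quantile normalization and 58 and 61 with equal array medians. The methods' t-test gave 111 at an unadjusted p under 0.01 and 0 after adjustment. The 51 probe sets at least 2-fold apart became 22 with the 60th percentile filter, and ranged from 53 to 135 with 1 array left out, where a lone array makes overlap less likely. The lowest was without DEX 1, and it was 135 without DEX 2, 107 without Mock 1 and 105 without Mock 2. The response differed from that of GL1-GR at 24 h for 0 to 6 probe sets with 1 array left out, with 1 without Mock 2 and 6 without DEX 2. It differed from that at 4 h for 0 under each alternative. A lone array was taken to vary like the others.

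Deviations of same-numbered arrays had a correlation of -0.14 over probe sets, which are not independent. This value cannot decide whether the numbers pair the samples, and the labels do not say. With the crossed pairing, chosen after seeing the data, 86 probe sets had an unadjusted p under 0.01 and 0 passed adjustment, as with the replicate block. Of 94 named genes and probe sets, 79 kept their sign in the settings tried. This was partly fixed in advance. The filters, the t-test, the replicate blocks and added arrays leave the difference as it is. A difference with non-overlapping arrays cannot change sign when 1 array is left out. The 15 that did not keep their sign had small differences. Of larger ones, the value nearest 0 with 1 array left out was 0.23 for *GID1B* and for *AT1G77020*, 0.46 for *AT5G18750*, 0.56 for *PDF1.2b*, 0.67 for *JRG21*, 0.72 for *PDF1.2*, -0.52 for *GRX480* and -0.77 for *AT2G23270*. *SCL8* turned to 0.0027 with quantile normalization and 0.0092 with equal medians, and *LHCB4.1* to 0.0046 with equal medians. With 1 array left out, the difference ranged from -0.055 to 0.091 for *TRY*, -0.0025 to 0.15 for *PyrD*, -0.038 to 0.30 for *MYBL2*, -0.16 to 0.27 for *SPY*, -0.056 to 0.19 for *TTG1*, -0.51 to 0.33 for *GID1C*, -0.27 to 0.062 for *CML38* and -0.55 to 0.17 for *STZ*. It ranged from -0.018 to 0.086 for *EXO*, -0.29 to 0.088 for *FMA*, -0.074 to 0.11 for *AT2G28390*, -0.10 to 0.067 for *LHCB4.1*, -7.9e-04 to 0.068 for *SBPASE* and -0.16 to 0.034 for *PYK10*.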

Other observations

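Differences between DEX and Mock varied with gene length. For 7412 tested probe sets with 1 gene of known length (start to end, in bases, RefSeq TAIR10.1), the Spearman correlation of length with the log2 difference was 0.24, a description across genes, which are not independent replicates. Among the shortest 20% (78 to 1527 bases) the median difference was -0.05 and 33.4% of the probe sets were above 0. Among the longest 20% (3490 to 26499 bases) the median was 0.04 and 61.8% were above 0. Of the 2-fold probe sets with a length, the 9 above Mock had a median of 3176 bases and the 16 below a median of 1390, beside 2313 over all.

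The relation was stronger in pairs that hold DEX 1. The correlation was 0.25 for DEX 1 minus Mock 1 and 0.34 for DEX 1 minus Mock 2, but 0.09 for DEX 2 minus Mock 2 and -0.02 for DEX 2 minus Mock 1. Between arrays of the same treatment it was 0.32 for DEX 1 minus DEX 2 and 0.09 for Mock 1 minus Mock 2. In the other sets it was 0.19 (GL1-GR at 24 h), 0.08 (GL1-GR at 4 h) and -5.4e-04 (GL3-GR at 4 h). DEX 1 also had the largest gap between the 3' and 5' actin probe sets, 4.13 against 3.98 to 4.01 in the other 3 arrays, and the smallest gap for ubiquitin, 3.13 against 3.29 to 3.61. Its part in the relation was not tested.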
